A study of Mus musculus with 10 samples.

Results

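Loss of MOF in the epidermis was followed into the other compartments of the skin at the embryonic stage E16.5. The comparison used 2 control and 2 MOF cKO libraries of single cells from total back skin, of the 10 libraries of the series. Cells were kept with more than 1000 and fewer than 6000 detected genes and with under 10% of unique molecular identifiers (UMIs) from mitochondrially encoded genes. The members were then chosen by their measured UMIs of a few marker genes. The epithelial gate took cells with at least 10 UMIs of Krt5 and Krt14 together. The fibroblast gate took cells with at least 30 UMIs of Col1a1 and Col3a1 together that did not pass the epithelial gate. The endothelial gate required 2 of the 3 genes Pecam1, Cdh5 and Kdr, and the macrophage gate 2 of the 3 genes C1qa, C1qb and Csf1r. Of 5666 kept E16.5 cells, 4784 met at least 1 gate, out of 55482 kept cells in the series. There were 847 epithelial, 3661 fibroblast, 122 endothelial and 256 macrophage cells. Because measured values chose the cells, the genes of the gates are not findings within them.

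MOF cKO embryos were homozygous for a floxed Mof allele (gene symbol Kat8) and carried Krt14-Cre, and controls were their littermates on a mixed C57BL/6J and CD-1 background. Krt14-Cre is active in the epithelium, so the deletion was directed at the epithelial cells and not at fibroblasts, endothelial cells or macrophages. The libraries were made with the 10x Genomics 3' v2 chemistry. MOF acetylates lysine 16 of histone H4. The epidermis is a barrier that renews itself from a basal layer, and damaged keratinocytes switch on the keratins Krt6, Krt16 and Krt17 and secrete cytokines that signal to the dermis beneath. Dermal fibroblasts answer such signals through receptors of the interleukin 1, interleukin 6 and interferon families. Endothelial cells admit leukocytes from the blood, and fetal skin also holds resident macrophages that settled there earlier in development.

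The E16.5 libraries held 13609345 to 42351503 UMIs, and the kept cells had medians of 9600 to 12539 UMIs. Control 2 had Xist at 0 to 2.28 CPM and Ddx3y at 29.7 to 75.7 CPM in the summed compartments. The other libraries had Xist between 579 and 1063 CPM, so control 2 differed from the other 3 libraries in the sex of its cells. Hemoglobin and other erythroid transcripts also varied, from 2884 to 31618 CPM in the endothelial sums. Control 1 carried keratin transcripts outside the epithelial gate. Its fibroblast-gate cells had a median of 5 UMIs of Krt5 and Krt14, against 2 in control 2 and 1 in each MOF cKO library. Just outside the epithelial gate, at 5 to 9 UMIs, lay 446 kept cells of control 1, 290 of control 2, 31 of MOF cKO 1 and 11 of MOF cKO 2, and just inside it, at 10 to 19 UMIs, lay 88, 37, 1 and 0. More than 1 gate was met by 9 and 14 cells in control and by 18 and 59 in MOF cKO. Pairs of E16.5 libraries shared few barcodes, and 9, 15, 6 and 9 kept cells had a barcode seen in another library. Kat8 stood at 13.1 and 13.4 CPM in the epithelial sums of control and at 11.5 and 4.37 CPM in MOF cKO, the latter from 5 and 3 UMIs (log2 difference -0.85, adjusted p = 0.343). In fibroblasts it stood at 8.62 and 8.42 CPM in control and at 3.05 and 5.44 CPM in MOF cKO, from 19 and 67 UMIs in the latter (log2 difference -0.95, adjusted p = 0.136). The groups did not overlap there, and 29.0% of genes tested in fibroblasts were likewise lower without overlap. The Kat8 values are counts from the 3' end of transcripts and do not measure the deleted segment.

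The first question was how the make-up of the skin changed. In control 1, 23.3% of kept cells were epithelial (95% Wilson interval 21.0 to 25.9), and in control 2 20.9% (19.4 to 22.6). MOF cKO skin held 4.19% (2.95 to 5.92) and 2.86% (2.10 to 3.89), from 30 and 39 cells. Averaged over 2 libraries each, the epithelial share was 22.1% ± 1.70 (SD) without and 3.53% ± 0.939 (SD) with the deletion. The macrophage gate took 2.89% (2.07 to 4.04) of the cells of control 1 and 1.84% (1.38 to 2.45) of control 2. It took 8.24% (6.44 to 10.5) of MOF cKO 1 and 8.73% (7.35 to 10.3) of MOF cKO 2, so that the mean rose by a ratio of 3.59 from 2.37% ± 0.747 (SD) to 8.49% ± 0.347 (SD). Fibroblasts made up 57.6% and 58.6% of the cells in control skin, compared with 72.3% and 77.3% after the deletion. Endothelial shares overlapped, at 0.965% and 2.45% in the controls and 3.49% and 1.91% in the MOF cKO libraries.

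The epithelial, fibroblast and macrophage shares did not overlap between the groups, and their differences exceeded the SD of either group. The exact two-sided permutation test has 6 arrangements in this design and gave its smallest possible p of 0.333 for these compartments and 0.667 for endothelial cells. Intervals cover counting error only. Shares are relative, and among kept cells outside the epithelial gate the fibroblast difference was 2.91 percentage points instead of 16.7, while the macrophage difference was 5.81 points instead of 6.12. Of the macrophage-gate cells, 1 and 4 in control and 9 and 45 in MOF cKO also passed the fibroblast gate. When cells meeting more than 1 gate were left out, the macrophage difference was 3.45 points.

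**Figure D1:**
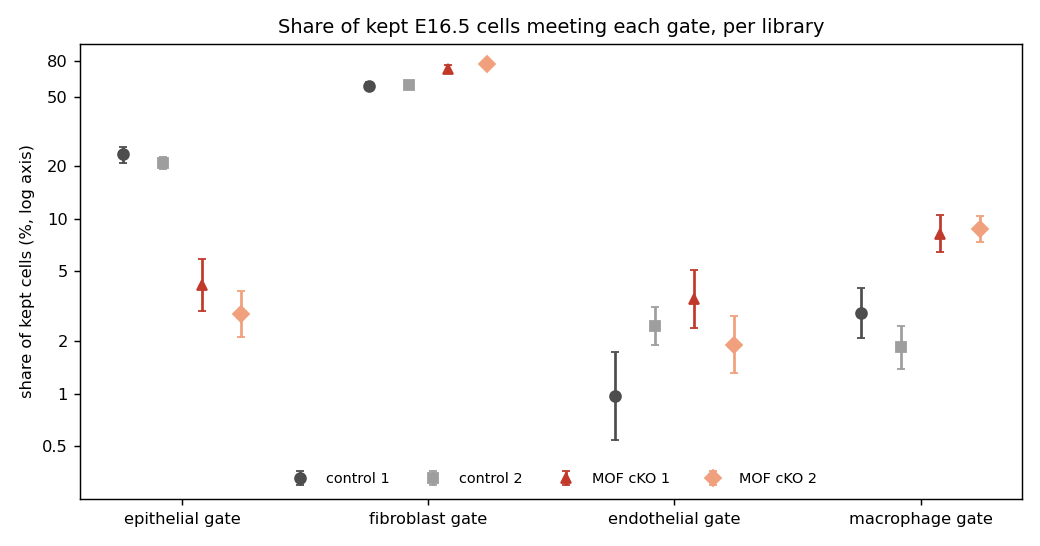
Share of kept E16.5 cells meeting each gate in each library, in percent on a log axis, with 95% Wilson intervals for counting error. Both MOF cKO libraries lie below both controls in the epithelial gate and above both in the fibroblast and macrophage gates, and the groups overlap in the endothelial gate.

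UMIs were then summed over the cells of a gate in each library, and MOF cKO was compared with control gene by gene. Levels are given as counts per 1e+06 UMIs of that sum (CPM), scaled by the TMM method, which assumes that most genes do not change. Differences are log2 ratios of MOF cKO over control with their standard errors, over 2 libraries against 2. The libraries were made from pairs of control and MOF cKO samples, and the p-values measure the spread between these libraries. A gene was called at a Benjamini-Hochberg adjusted p under 0.05. In epithelial cells 578 of 9938 genes tested were called (5.82%), 465 higher (4.68%) and 113 lower (1.14%). In fibroblasts 583 of 12569 were called (4.64%), 305 higher (2.43%) and 278 lower (2.21%). In endothelial cells 298 of 6027 were called (4.94%), 265 higher (4.4%) and 33 lower (0.548%). No gene of 7201 was called in macrophage cells (0.0%) by the edgeR test, where 1055 had an unadjusted p under 0.05 and DESeq2 called 151. In epithelial, fibroblast and endothelial cells 2792, 3172 and 971 of the genes tested had an unadjusted p under 0.05, in either direction. Both MOF cKO libraries lay above both controls in 28.5%, 28.4%, 25.1% and 23.4% of genes tested in epithelial, fibroblast, endothelial and macrophage cells. They lay below both in 35.1%, 29.0%, 22.3% and 22.8%.

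Single libraries weighed heavily on the counts of genes called. Without control 2, no gene was called in fibroblasts by edgeR (2579 had an unadjusted p under 0.05), and without control 1, MOF cKO 1 or MOF cKO 2 the count was 369, 138 or 187. In epithelial cells it was 39 without MOF cKO 1, all higher, 175 without MOF cKO 2 and 1112 without control 2. In endothelial cells it was 475 without control 1 and 467 without control 2, and in macrophage cells 55 without control 2. Without TMM the median difference of epithelial cells moved from -0.11 to -0.71, and the calls turned to 263 higher and 549 lower. Epithelial differences are therefore given relative to the median gene.

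**Figure D2:**
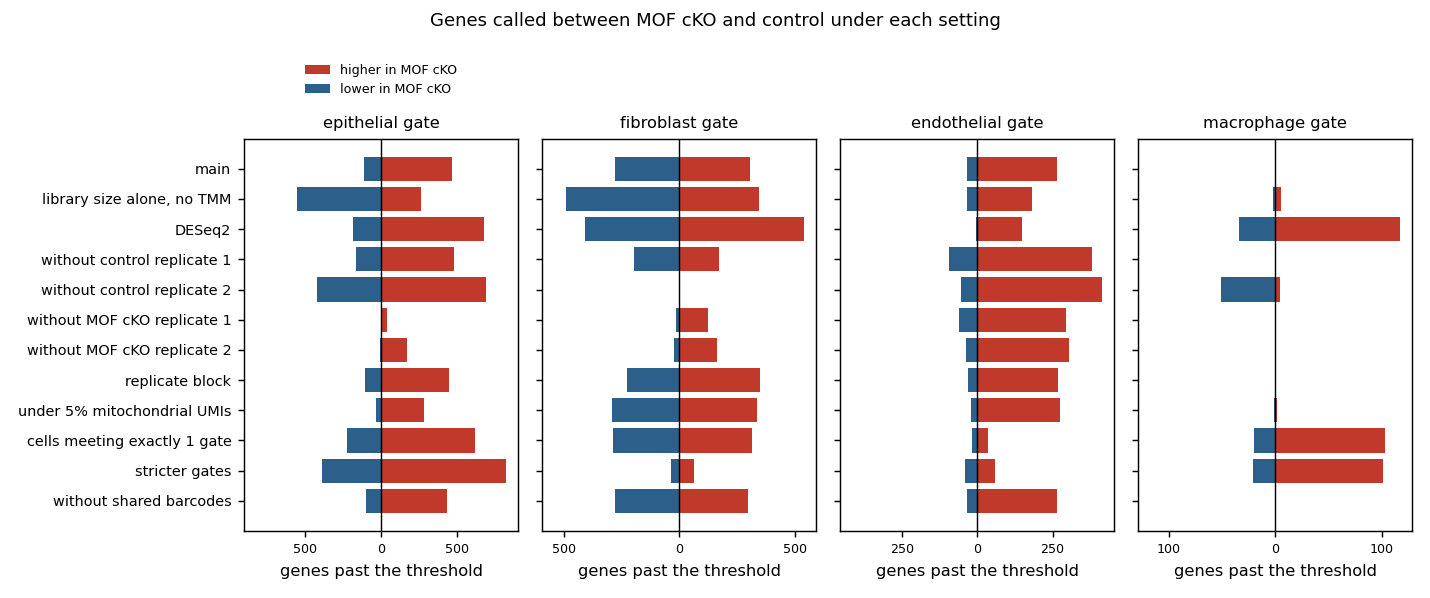
Number of genes past the adjusted p threshold in each gate, to the right those higher and to the left those lower in MOF cKO, under the main fit and the alternatives (the horizontal axis differs between gates). The alternative without a filter on low counts is not drawn. Fibroblast calls fall to 0 without control 2, endothelial calls to 52 in cells meeting exactly 1 gate, and macrophage calls go from 0 to 123 in such cells.

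**Figure D3:**
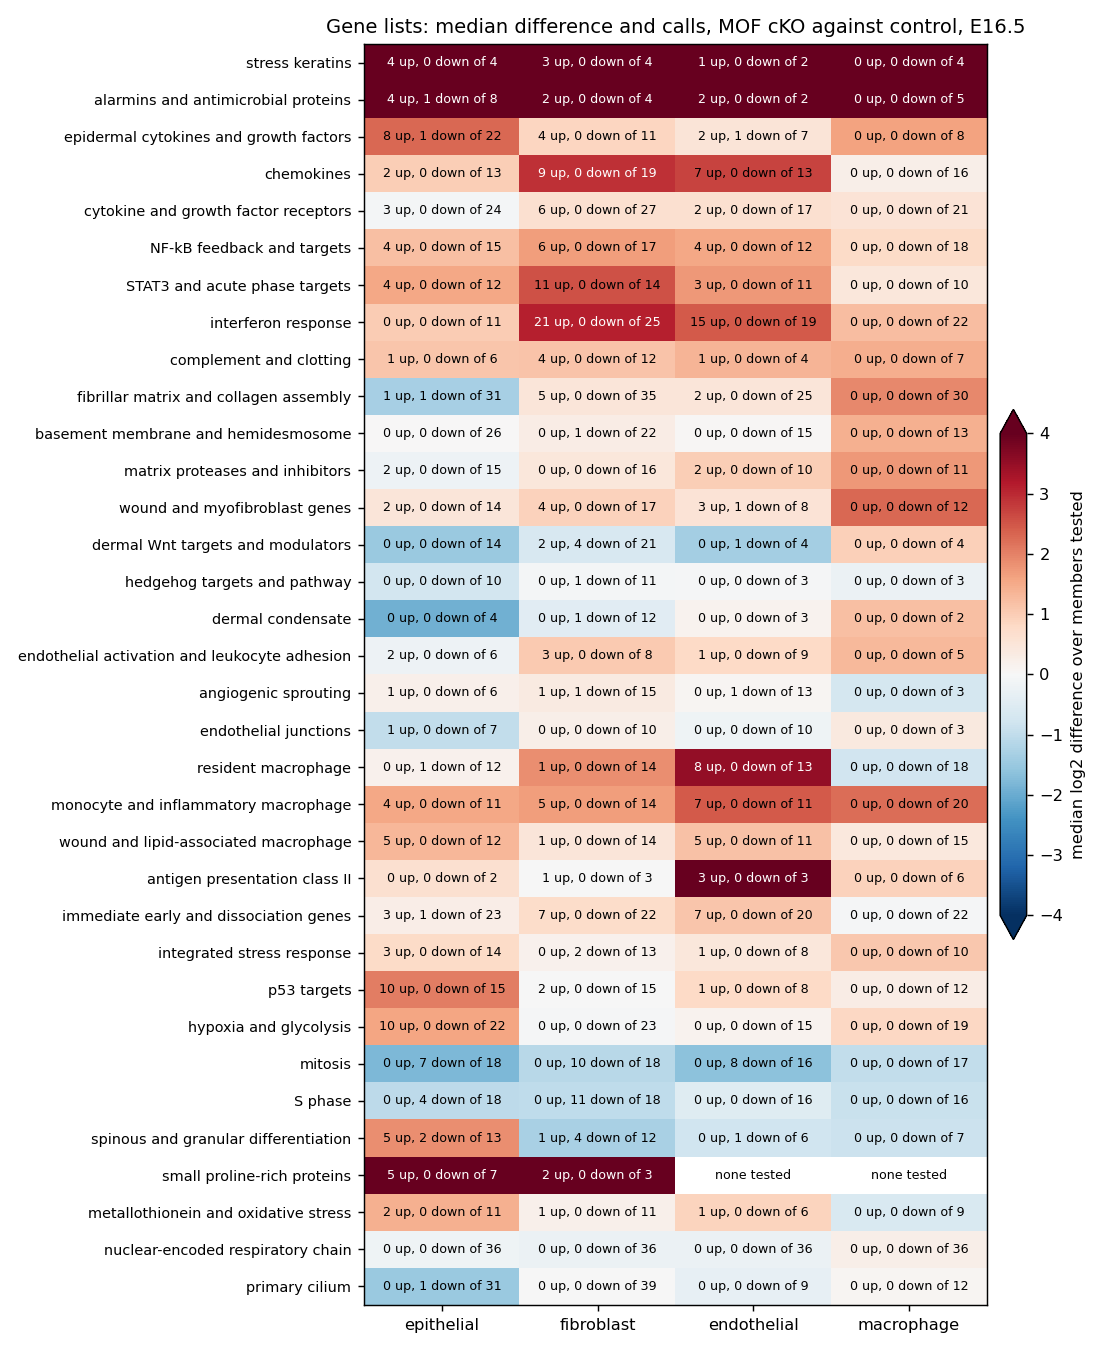
Gene lists in the summed cells of each gate at E16.5. Colour is the median log2 difference of MOF cKO over control among the members tested (truncated at 4 in either direction), and the text counts members called higher and lower. Interferon response genes have the most members called higher in the fibroblast and endothelial columns, and p53 targets and glycolysis in the epithelial column. The largest medians are those of stress keratins in the epithelial (8.84) and fibroblast (5.73) columns. In the endothelial column it is that of alarmins and antimicrobial proteins (7.42, 2 members tested). The median of mitosis genes is below 0 in every column.

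The epithelial cells left in MOF cKO skin had higher transcripts of stress keratins, small proline-rich proteins and several secreted cytokines. All 4 stress keratins rose, where 4.68% of all genes did (median log2 difference 8.84, against -0.11 over all genes tested). Krt16, a keratin of regenerating epidermis, had 23.8 and 12.8 CPM in the controls and 19049 and 9813 CPM in MOF cKO (log2 difference 9.63 ± 0.72, adjusted p = 0.00443). Krt6b rose from 0.192 and 0.957 to 11789.9 and 5379.9 CPM (log2 difference 13.65 ± 0.93, adjusted p = 0.00443), from 1 and 8 UMIs in the controls. Krt6a, its near-identical neighbour, had 1.15 and 61.5 CPM in the controls and 10960.4 and 5966 CPM in MOF cKO (log2 difference 8.06 ± 1.69, adjusted p = 0.0457). The controls differed widely from each other for Krt6a, and both lay far below both MOF cKO libraries. Krt17 was already high in the controls and rose from 752 and 1007 to 6370.4 and 3796 CPM (log2 difference 2.53 ± 0.42, adjusted p = 0.0273).

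The small proline-rich proteins, which are cross-linked into the cornified envelope, rose in 5 of 7 members tested. Sprr2h and Sprr2d had no UMI in either control. With at most 3 counts allowed over the control group, Sprr2h was at least 620.3-fold higher and Sprr2d at least 455-fold higher in MOF cKO, at 234 and 75.8 CPM and at 172 and 55.4 CPM (adjusted p = 0.0115 and 0.0121). Sprr2b rose from 0.192 and 0.478 to 66.5 and 67 CPM (log2 difference 7.4 ± 0.48, adjusted p = 0.00443). These genes lie together on chromosome 3 in GRCm38, with Sprr2d at chr3:92339140-92340873, plus strand, and Sprr2h at chr3:92385685-92387324, plus strand. The uncharacterised transcript 2310046K23Rik lies in the same stretch, at chr3:92532505-92534511, minus strand, and rose from 1.73 and 0.12 to 3708 and 950.1 CPM (log2 difference 11.44 ± 1.28, adjusted p = 0.0121). Gm5416 was among the largest rises as well (0.384 and 0.478 CPM in the controls and 2122 and 851 CPM in MOF cKO; adjusted p = 0.00443). Members of these families share sequence, and how reads common to several copies were divided is not given in the sources used here.

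Differentiation genes moved both ways. Of 13 members of the spinous and granular list, 5 rose and 2 fell. Tgm1 and Tgm3 encode transglutaminases that cross-link the cornified envelope. Tgm1 rose from 5.38 and 3.47 to 181 and 86 CPM (log2 difference 4.91 ± 0.49, adjusted p = 0.00934) and Tgm3 from 1.15 and 1.44 to 59.6 and 53.9 CPM (log2 difference 5.39 ± 0.40, adjusted p = 0.00443). Ivl, which encodes the envelope precursor involucrin, rose from 7.49 and 14.4 to 241 and 122 CPM (log2 difference 4.02 ± 0.49, adjusted p = 0.0142). Lor, encoding loricrin, the major envelope protein of granular cells, went the other way, with 3222 and 589 CPM in the controls and 18.3 and 33.5 CPM in MOF cKO (log2 difference -6.16 ± 0.95, adjusted p = 0.0219). Hrnr, encoding the late envelope protein hornerin, fell from 141 and 42.2 to 0 and 5.83 CPM (log2 difference -4.7 ± 0.99, adjusted p = 0.0461). In cells of the epithelial gate alone, without TMM scaling, Hrnr had 55.6 and 47.1 CPM in the controls and 0 and 5.67 CPM in MOF cKO. Lor had 2472 and 656 CPM in the controls and 13.3 and 29.8 CPM in MOF cKO there. Both passed by edgeR in these cells (log2 difference -3.33, adjusted p = 0.033, and -5.46, adjusted p = 0.0103). Krt1 and Klf4 were the other members that rose. The groups did not overlap in any of these 5 genes whose values are given. Of all genes tested in epithelial cells, 28.5% lay higher and 35.1% lower without overlap.

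Secreted signals rose in the same cells. Of 22 epidermal cytokines and growth factors tested, 8 rose and 1, Tgfb2, fell. Tslp, an epithelial cytokine that acts on dendritic cells and lymphocytes, had 0.768 and 0.239 CPM in the controls and 273 and 125 CPM in MOF cKO (log2 difference 8.66 ± 0.67, adjusted p = 0.00468). Il33, an alarmin of the interleukin 1 family, rose from 0.384 and 0.12 to 48.1 and 23.3 CPM (log2 difference 7.07 ± 0.71, adjusted p = 0.00934), and Areg, a ligand of the epidermal growth factor receptor, from 0.192 and 0.359 to 71 and 59.7 CPM (log2 difference 7.64 ± 0.48, adjusted p = 0.00443). Il24 was without a UMI in either control and had 29.8 and 16 CPM in MOF cKO, at least 96.7-fold higher (adjusted p = 0.0142). All 4 lay under 1 CPM in both controls. Of 13 chemokines tested 2 rose, Cxcl16 from 4.8 and 5.62 to 160.4 and 81.6 CPM (log2 difference 4.5 ± 0.43, adjusted p = 0.00784) and Ccl20 from 0.192 and 0.478 to 57.3 and 14.6 CPM (log2 difference 6.44 ± 0.87, adjusted p = 0.0157). The receptors Il4ra (log2 difference 4.28 ± 0.69, adjusted p = 0.025) and Il13ra1 (log2 difference 1.95 ± 0.30, adjusted p = 0.0221), which together bind interleukin 13, rose too. In all, 3 of 24 cytokine and growth factor receptors were called, and 4 were higher and 4 lower at an unadjusted p under 0.05 (median -0.086). The alarmins S100a8 and S100a9 form calprotectin, a protein of neutrophils and of stressed keratinocytes. S100a8 rose from 0.192 and 0.718 to 1414 and 361 CPM (log2 difference 10.69 ± 1.01, adjusted p = 0.00766) and S100a9 from 0.961 and 4.07 to 3717 and 1797 CPM (log2 difference 10.01 ± 0.88, adjusted p = 0.00704). A list of 12 monocyte and neutrophil markers, which includes S100a8 and S100a9, summed to 4.41 and 6.73 CPM in the control epithelial cells and to 3892 and 1860 CPM in MOF cKO (without TMM scaling), and its part in these results was not tested. In cells meeting the epithelial gate alone the sums were 4.36 and 6.80 against 3758 and 2105 CPM. Of the MOF cKO sums there, S100a9 held 2874 and 1746 CPM and S100a8 868 and 350 CPM. The sums were thus mostly these 2 genes. Macrophage markers summed to 407 and 30.8 CPM in control and 118 and 761 CPM in MOF cKO, with overlapping groups.

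Feedback genes of NF-kB signalling rose in 4 of 15 members tested. These were Bcl3 (log2 difference 3.97 ± 0.55, adjusted p = 0.017), the ribonuclease Zc3h12a (log2 difference 3.43 ± 0.52, adjusted p = 0.0215), the adhesion molecule Icam1 (log2 difference 1.49 ± 0.26, adjusted p = 0.0309) and Tnfaip3 (log2 difference 2.64 ± 0.50, adjusted p = 0.0374), which encodes the ubiquitin-editing protein A20. Of 11 interferon response genes tested none was called by edgeR, 3 had an unadjusted p under 0.05 and DESeq2 called 2.

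Genes of the p53 response and of glycolysis rose in the same cells. Of 15 p53 targets, 10 rose and none fell (median 2.04). Cdkn1a, encoding the cell cycle inhibitor p21, had 60.5 and 34.6 CPM in the controls and 557 and 307 CPM in MOF cKO (log2 difference 3.18 ± 0.44, adjusted p = 0.017). Ccng1 rose from 23.6 and 17.1 to 128 and 101 CPM (log2 difference 2.49 ± 0.32, adjusted p = 0.0145), Trp53inp1 from 5.38 and 6.7 to 43.5 and 39.3 CPM and Phlda3 from 54.9 and 74.3 to 422 and 269.6 CPM, with adjusted p = 0.0148 and 0.0183. Of 22 genes of hypoxia and glycolysis, 10 rose and none fell (median 1.58). Slc16a3, a lactate exporter, had 7.3 and 7.3 CPM in the controls and 71 and 83.1 CPM in MOF cKO (log2 difference 3.4 ± 0.31, adjusted p = 0.00704). Pfkp, a phosphofructokinase, rose from 4.8 and 2.51 to 55 and 43.7 CPM (log2 difference 3.76 ± 0.46, adjusted p = 0.0141), and Eno1, an enolase, from 225 and 272 to 1249 and 965 CPM (log2 difference 2.15 ± 0.32, adjusted p = 0.0209). Bnip3, a mitophagy receptor induced by low oxygen, rose from 13.4 and 16 to 68.7 and 69.9 CPM (log2 difference 2.23 ± 0.29, adjusted p = 0.0148). Both MOF cKO libraries lay above both controls in each of the genes given, as they did in 28.5% of all genes tested in epithelial cells. Without TMM, 6 members of each of these lists passed. Nuclear-encoded subunits of the respiratory chain were called in 0 of 36 members by edgeR and by DESeq2 (median -0.16), and 8 were lower and 3 higher at an unadjusted p under 0.05. Over all genes 2792 of 9938 were at that level, in either direction. The test of this list against the other compartments is given below.

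Cell cycle genes were lower. In summed cells, fewer cells in cycle and less RNA per cell cannot be told apart. Of 18 mitosis genes 7 fell and none rose, where 1.14% of all genes fell (median -1.81), and 4 of 18 S phase genes fell. Ccnb1 and Ccnb2, the B-type cyclins that drive entry into mitosis, fell from 118 and 113 to 11.5 and 24.8 CPM (log2 difference -2.61 ± 0.39, adjusted p = 0.0207) and from 99.1 and 111 to 6.87 and 13.1 CPM (log2 difference -3.32 ± 0.38, adjusted p = 0.0128). The spindle kinase Aurka fell from 45.5 and 39.7 to 9.17 and 11.7 CPM (log2 difference -2.0 ± 0.37, adjusted p = 0.0356), and Tyms, which makes thymidylate for DNA synthesis, from 138 and 119 to 22.9 and 37.9 CPM (log2 difference -2.04 ± 0.34, adjusted p = 0.0273). Of 31 genes of the primary cilium 1 was called, B9d1, a protein of the ciliary transition zone, at 15.8 and 22 CPM in the controls and 0 and 1.46 CPM in MOF cKO (log2 difference -4.37 ± 0.83, adjusted p = 0.0374). The median of that list was -1.5, or -1.37 with genes without a UMI in MOF cKO set to their bound. At an unadjusted p under 0.05, 15 of its 31 members were lower and 0 higher. Outside these lists, Rgs2, a regulator of G protein signalling, fell from 72.8 and 102 to 6.87 and 13.1 CPM (log2 difference -3.06 ± 0.42, adjusted p = 0.0167), and Cygb, encoding the globin cytoglobin, from 49.8 and 99.3 to 2.29 and 11.7 CPM (log2 difference -3.26 ± 0.64, adjusted p = 0.0401). The lower levels in MOF cKO rest on few UMIs. In cells of the epithelial gate alone, the MOF cKO libraries had 5 and 14 UMIs of Ccnb1 and 3 and 7 of Ccnb2. They had 3 and 8 of Aurka, 8 and 21 of Tyms and 0 and 1 of B9d1. Rgs2 had 2 and 6, and Cygb 1 and 8. Calls of lower genes were lost without MOF cKO 1, as given above. The 12 fibroblast markers summed to 5427 and 1592 CPM in the control epithelial sums and to 556 and 749 CPM in MOF cKO, and their part was not tested.

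**Figure D4:**
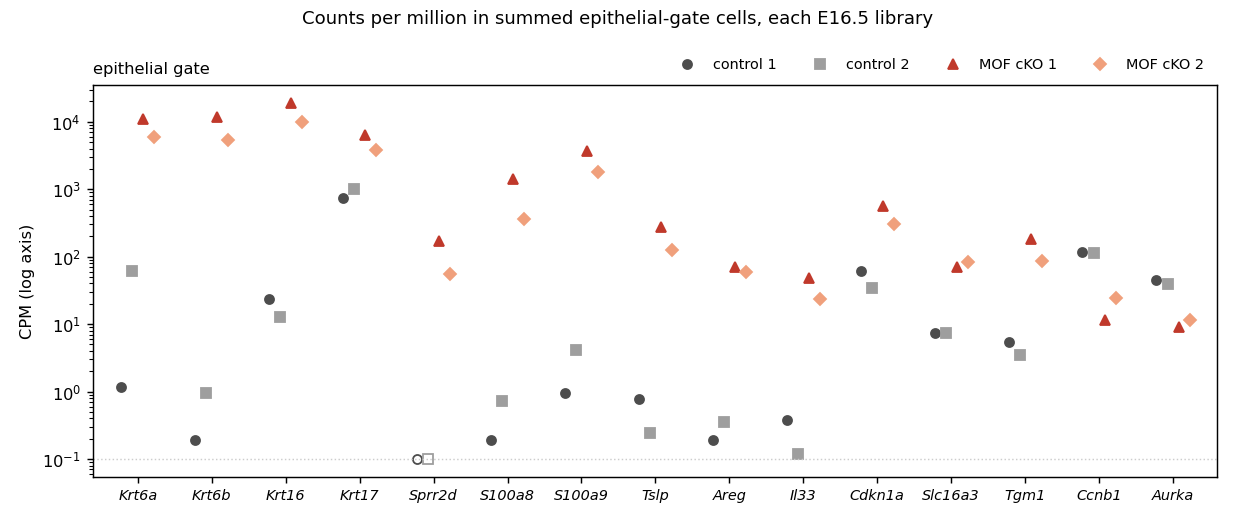
CPM of 15 genes in the summed epithelial-gate cells of each E16.5 library, on a log axis. Open symbols at the dotted line stand for 0 UMIs; the MOF cKO symbols lie above both controls for the keratins, cytokines and stress genes and below both for Ccnb1 and Aurka.

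In the fibroblasts of MOF cKO skin, which the deletion was not directed at, genes of the interferon response rose together. Of 25 interferon response genes tested, 21 rose and none fell, where 2.43% of all genes rose (median 3.12, against 0.01 over all genes). The antiviral factor Oasl2 had 0.125 and 0.204 CPM in the controls and 38.6 and 21.3 CPM in MOF cKO (log2 difference 7.3 ± 0.52, adjusted p = 0.0191). Irf7, a transcription factor that amplifies type I interferon, rose from 0.625 and 0.883 to 49.97 and 29.4 CPM (log2 difference 5.63 ± 0.39, adjusted p = 0.0191). Ifit1, which binds viral RNA, was found with 3 and 1 UMIs in the controls and rose from 0.375 and 0.0679 to 82.8 and 29.7 CPM (log2 difference 8.19 ± 0.87, adjusted p = 0.0275). Bst2, a membrane tether of viruses, rose from 13.2 and 7.95 to 223 and 178 CPM (log2 difference 4.26 ± 0.29, adjusted p = 0.0191), and the class I antigen presentation gene H2-D1 from 18.2 and 13.5 to 83.1 and 106 CPM (log2 difference 2.59 ± 0.21, adjusted p = 0.0243). Both MOF cKO libraries lay above both controls for each of these, as they did for 28.4% of all genes tested in fibroblasts. The response did not pass the threshold without control 2, the library that differed in sex, where none of the 25 members was called, although the median was 2.96. With stricter gates 10 members were called, and the median was 3.32.

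Because interferon acts through a short DNA element, the promoters of 3 responding genes are shown. The element bound by the interferon factor ISGF3 has a core of GAAA, any 2 bases and GAAA. This core was searched on both strands in the 250 bases before the start of each gene in RefSeq (GRCm38.p6). Matches may overlap, and they are in capitals below, with the promoter read 5′ to 3′ along the gene.
Isg15, chr4:156200819-156201068, minus strand: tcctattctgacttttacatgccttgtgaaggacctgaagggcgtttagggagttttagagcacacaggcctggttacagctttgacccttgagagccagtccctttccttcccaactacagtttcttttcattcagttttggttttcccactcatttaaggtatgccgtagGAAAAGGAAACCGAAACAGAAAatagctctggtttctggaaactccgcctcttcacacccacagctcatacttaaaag
Ifit1, chr19:34640639-34640888, plus strand: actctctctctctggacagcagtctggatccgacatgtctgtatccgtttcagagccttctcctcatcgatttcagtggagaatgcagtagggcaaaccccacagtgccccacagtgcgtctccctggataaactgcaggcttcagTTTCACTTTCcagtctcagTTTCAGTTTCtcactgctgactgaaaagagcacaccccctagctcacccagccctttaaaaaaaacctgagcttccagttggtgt
Cxcl10, chr5:92348890-92349139, minus strand: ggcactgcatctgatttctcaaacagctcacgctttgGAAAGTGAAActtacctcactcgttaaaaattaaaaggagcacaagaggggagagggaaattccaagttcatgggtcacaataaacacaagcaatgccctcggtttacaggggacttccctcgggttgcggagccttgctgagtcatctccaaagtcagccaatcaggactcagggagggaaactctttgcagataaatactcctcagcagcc
The Isg15 promoter holds 3 overlapping matches, that of Ifit1 holds 2 on the reverse strand, and that of Cxcl10 holds 1. Isg15, which encodes a ubiquitin-like modifier and was chosen here after its values were seen, rose from 4.0 and 1.36 to 178 and 94.3 CPM in fibroblasts (log2 difference 5.78 ± 0.57, adjusted p = 0.0243). Of the interferon list, 21 genes matched a promoter by symbol, and 11 of them (52.4%) held the core. The share over all 27025 genes with a promoter was 3.46%. Of 14 mitosis genes none held it, and of 20 chemokines 3 did. A match describes the sequence and is not evidence of binding in these cells.

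Chemokines rose in 9 of 19 members tested. Cxcl10, a chemokine induced by interferon that attracts T cells, had 4.62 and 2.11 CPM in the controls and 329 and 84.6 CPM in MOF cKO (log2 difference 6.01 ± 0.83, adjusted p = 0.0335). Ccl7, which attracts monocytes, rose from 3.5 and 5.98 to 147 and 60.7 CPM (log2 difference 4.4 ± 0.52, adjusted p = 0.0285), and Cxcl5, which attracts neutrophils, from 6.87 and 2.24 to 223 and 84.9 CPM (log2 difference 5.17 ± 0.71, adjusted p = 0.0335). MOF cKO 1 was above MOF cKO 2 in all 3 genes, and both were above both controls. Ccl9 (log2 difference 4.14 ± 0.40, adjusted p = 0.0243) and Ccl12 (log2 difference 3.26 ± 0.41, adjusted p = 0.0293) rose from levels under 2 CPM. In MOF cKO 2, 45 fibroblast-gate cells also met the macrophage gate. Macrophage markers summed to 29.9 and 60.3 CPM in control fibroblasts and to 123 and 338 CPM in MOF cKO. In cells of the fibroblast gate alone these sums were 29.98 and 48.2 against 124 and 115 CPM, and 7 of 18 chemokines and 20 of 25 interferon genes were called. Monocyte and neutrophil markers summed to 10.04 and 12.1 CPM in control and to 79.7 and 76.0 CPM in MOF cKO in cells of that gate alone, and the part of either list was not tested.

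The STAT3 pathway, through which cytokines of the interleukin 6 family act, was followed from ligand to target. Il6 rose from 23.2 and 15.2 to 120.2 and 94.9 CPM (log2 difference 2.49 ± 0.25, adjusted p = 0.0243). Its receptor chain Il6st rose from 39.8 and 45 to 116 and 98.2 CPM (log2 difference 1.33 ± 0.15, adjusted p = 0.0275) and the oncostatin M receptor Osmr from 2.25 and 2.45 to 23.6 and 13.2 CPM (log2 difference 2.94 ± 0.35, adjusted p = 0.0285). Stat3 itself rose from 31 and 32.9 to 94.8 and 77.1 CPM (log2 difference 1.42 ± 0.15, adjusted p = 0.0275), and the feedback inhibitor Socs3 from 68.7 and 43.3 to 278 and 211 CPM (log2 difference 2.13 ± 0.27, adjusted p = 0.0299). In all, 11 of 14 STAT3 and acute phase targets rose and none fell. The acute phase gene Saa3 had no UMI in either control and 28 and 82.4 CPM in MOF cKO, at least 486-fold higher (adjusted p = 0.0315). In cells of the fibroblast gate alone Saa3 had 0 and 0 CPM in the controls and 25.6 and 4.7 CPM in MOF cKO and did not pass (adjusted p = 0.0659). Serpina3n, a protease inhibitor of the same response, had 0.125 and 0.136 CPM in the controls and 228 and 30.3 CPM in MOF cKO (log2 difference 9.8 ± 1.54, adjusted p = 0.0369).

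Of 27 cytokine and growth factor receptors 6 rose, among them the interleukin 1 receptor Il1r1 (log2 difference 1.33 ± 0.21, adjusted p = 0.0369) and Il4ra (log2 difference 1.72 ± 0.28, adjusted p = 0.0383). NF-kB targets rose in 6 of 17 members, including Nfkbiz (log2 difference 1.66 ± 0.16, adjusted p = 0.0243) and Irf1 (log2 difference 2.1 ± 0.31, adjusted p = 0.0355). Complement genes rose in 4 of 12 members. The early components C2 (log2 difference 3.68 ± 0.24, adjusted p = 0.0191), C1s1 (log2 difference 2.96 ± 0.22, adjusted p = 0.0191) and C1ra (log2 difference 3.87 ± 0.37, adjusted p = 0.0243) rose together with Serping1 (log2 difference 2.07 ± 0.15, adjusted p = 0.0191), which encodes the inhibitor of C1. Immediate early genes, which are also switched on by dissociation of tissue, rose in 7 of 22 members, for example Junb from 1186 and 1155 to 2268 and 2202 CPM (log2 difference 0.93 ± 0.15, adjusted p = 0.0386).

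Of 35 genes for fibrillar matrix and its assembly 5 rose. Tnc, encoding tenascin C, a matrix protein of wounds, had 11.9 and 9.37 CPM in the controls and 264 and 81 CPM in MOF cKO (log2 difference 4.03 ± 0.60, adjusted p = 0.0355). Thbs1 (log2 difference 1.47 ± 0.23, adjusted p = 0.0361), Col12a1 (log2 difference 1.12 ± 0.17, adjusted p = 0.0367) and Adamts2 (log2 difference 0.92 ± 0.15, adjusted p = 0.0389), a procollagen protease, rose less. Of 22 basement membrane genes 1 was called, where 4.64% of all genes tested were. At an unadjusted p under 0.05, 9 members were higher and 2 lower (median 0.31). The member called was Col7a1, the collagen of the fibrils that anchor the epidermis, which fell from 125 and 90.1 to 46.8 and 41 CPM (log2 difference -1.29 ± 0.19, adjusted p = 0.0355). Epithelial markers were lower in the MOF cKO fibroblast sums too, as given below, and their part in this fall was not tested.

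Of 21 dermal Wnt genes 4 fell and 2 rose. Dkk1, a secreted inhibitor of Wnt signalling, went from 34.2 and 29.2 to 1.61 and 2.52 CPM (log2 difference -3.87 ± 0.25, adjusted p = 0.0191). Wif1, another Wnt inhibitor, fell from 308 and 263 to 43.9 and 63 CPM (log2 difference -2.41 ± 0.22, adjusted p = 0.0243), and Lef1, a transcription factor of the pathway, from 60.7 and 46.1 to 21.2 and 15.8 CPM (log2 difference -1.54 ± 0.21, adjusted p = 0.0335). Rspo1, a secreted enhancer of Wnt signalling, was among those that rose (log2 difference 1.87 ± 0.19, adjusted p = 0.0267). Ptch1, receptor and target of the hedgehog pathway, fell from 98.3 and 66.6 to 23.3 and 23 CPM (log2 difference -1.83 ± 0.21, adjusted p = 0.0285) and was the 1 member called of 11 in its list. Id1, a target of BMP signalling, fell from 72.5 and 71.9 to 17.8 and 22.2 CPM (log2 difference -1.84 ± 0.15, adjusted p = 0.0243), and Trps1, a transcription factor of the dermal condensate, from 169.9 and 109 to 59.9 and 45.2 CPM (log2 difference -1.41 ± 0.26, adjusted p = 0.0478). Trps1 was the 1 member called of 12 in the dermal condensate list, of which 4 were lower at an unadjusted p under 0.05. Over all genes 3172 of 12569 were at that level, in either direction. The serine protease Prss23 fell from 86.7 and 69 to 18 and 31.3 CPM (log2 difference -1.64 ± 0.28, adjusted p = 0.0416). The groups did not overlap for any of the genes in this paragraph. Of all genes tested in fibroblasts, 28.4% lay higher and 29.0% lower without overlap. The largest falls were also chosen among genes that did not overlap.

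Cell cycle genes fell in fibroblasts as well. Of 18 mitosis genes 10 fell, where 2.21% of all genes did (median -1.1), and of 18 S phase genes 11 fell (median -1.0), with none higher. Bub1, of the spindle checkpoint, fell from 24.7 and 25.8 to 8.84 and 9.25 CPM (log2 difference -1.48 ± 0.15, adjusted p = 0.0267). The replicative helicase subunits Mcm5 (log2 difference -1.21 ± 0.12, adjusted p = 0.0243) and Mcm7 (log2 difference -1.28 ± 0.12, adjusted p = 0.0243) and Rrm2 (log2 difference -1.46 ± 0.13, adjusted p = 0.0243), a subunit of ribonucleotide reductase, fell by similar amounts. None of these genes was called without control 2, where the medians were -0.84 and -0.98. With stricter gates 1 mitosis gene and 5 S phase genes were called. The genes of serine synthesis Phgdh (log2 difference -1.43 ± 0.15, adjusted p = 0.0275) and Psat1 (log2 difference -1.05 ± 0.18, adjusted p = 0.0435) fell too. They were the 2 members called of 13 in the integrated stress response list (median 0.17), of which 3 were higher and 3 lower at an unadjusted p under 0.05.

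Keratinocyte transcripts were also found in fibroblast sums. Lor went from 238 and 124 to 26 and 9.98 CPM (log2 difference -3.36 ± 0.54, adjusted p = 0.0383) and Krt16 from 0.999 and 0.34 to 83.6 and 22.5 CPM (log2 difference 6.45 ± 0.91, adjusted p = 0.0335). A list of 15 epithelial markers summed to 383 and 455 CPM in control fibroblasts and to 194 and 234 CPM in MOF cKO. The part of transcripts from outside the cells in these values was not tested.

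The endothelial comparison rested on 11 and 60 control cells and 25 and 26 MOF cKO cells, and 3, 10, 9 and 11 of these met a second gate. In MOF cKO, 5 and 8 of them met the macrophage gate, against 0 and 1 in control. The 13 macrophage markers summed to 41.2 and 138 CPM in control and to 3170 and 6000 CPM in MOF cKO, and in cells of the endothelial gate alone to 52.2 and 134 against 227 and 126 CPM. The 5 largest rises among genes of at least 50 CPM were Saa3, the myeloid lectin genes Clec4a1 and Clec4a2, the chemokine Ccl12 and AF251705, another myeloid receptor. Clec4a1 and Ccl12 were without a UMI in the controls. With 102 and 126 CPM in MOF cKO, Clec4a1 was at least 39.8-fold higher, and Ccl12, with 85.9 and 148 CPM, at least 41-fold higher. In cells of the endothelial gate alone Clec4a1 had 3.28 and 0 CPM in MOF cKO, and Ccl12 had 0 in all 4 libraries. Resident macrophage genes were called in 8 of 13 members with all endothelial-gate cells and in 1 of 6 with cells of that gate alone. Values from both sets of cells are given for most genes below. Levels of cells of that gate alone are not scaled by TMM.

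Interferon response genes rose in 15 of 19 members tested, where 4.4% of all genes rose (median 2.44, against 0.02 over all genes). In cells of the endothelial gate alone, 8 of 14 rose, with a median of 1.90, where 35 of all 4187 genes tested rose and 17 fell. Ifit1 was without a UMI in the controls and had 51.1 and 48 CPM in MOF cKO, at least 17.2-fold higher (adjusted p = 0.00284). Cells of that gate alone had 65.7 and 63.2 CPM, and Ifit1 was called there as well (adjusted p = 0.0183). Irf7 rose from 12.9 and 5.65 to 132 and 164 CPM (log2 difference 4.37 ± 0.43, adjusted p = 0.000843), and in cells of the gate alone it had 0 and 3.98 CPM in the controls and 46 and 59.9 CPM in MOF cKO (log2 difference 3.9, adjusted p = 0.0229). H2-K1, of class I antigen presentation, rose from 38.6 and 27.1 to 239 and 406 CPM (log2 difference 3.42 ± 0.38, adjusted p = 0.00141), with 26.1 and 29.2 CPM in the controls and 167 and 89.9 CPM in MOF cKO in cells of the gate alone (log2 difference 2.31, adjusted p = 0.0314). B2m, its partner chain, rose from 476 and 542 to 1915 and 2766 CPM (log2 difference 2.19 ± 0.29, adjusted p = 0.00305) but did not pass in cells of the gate alone (log2 difference 1.19, adjusted p = 0.117).

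Chemokines rose in 7 of 13 members with all cells and in 1 of 3 with cells of the gate alone. The member called in both was Cxcl10. It was absent from the UMIs of both controls and had 78.9 and 111 CPM in MOF cKO, at least 33.2-fold higher (adjusted p = 0.00141), and 102 and 103 CPM in cells of the gate alone (adjusted p = 0.00896). Cxcl16 and Ccl12, called with all cells, had 0 CPM in every library there. NF-kB targets rose in 4 of 12 members with all cells and in 1 of 8 with cells of the gate alone. Immediate early genes, which are also switched on by dissociation of tissue, rose in 7 of 20 members (median 1.11) and in 3 of 20 with cells of the gate alone, and the part of dissociation was not tested. Nfkbiz and Irf1 (adjusted p = 0.0504 for both), Zfp36 (adjusted p = 0.132) and Fosb (adjusted p = 0.228) did not pass with cells of the gate alone, and Tnfaip3 was not tested there. Socs3 rose from 32.1 and 80.2 to 359.7 and 225 CPM (log2 difference 2.15 ± 0.39, adjusted p = 0.0116), and in cells of the gate alone it also rose (log2 difference 2.16, adjusted p = 0.0229). The NF-kB target Birc3, an inhibitor of cell death, rose from 0 and 9.03 to 81.2 and 67.6 CPM (log2 difference 3.27 ± 0.53, adjusted p = 0.00779) and also passed there (log2 difference 2.75, adjusted p = 0.0475). The immediate early gene Ier3 rose from 70.7 and 96 to 552 and 449 CPM (log2 difference 2.52 ± 0.29, adjusted p = 0.0018) and Atf3, a transcription factor of the same list, from 12.9 and 48.6 to 204 and 185 CPM (log2 difference 2.3 ± 0.38, adjusted p = 0.00856), and both passed in cells of the gate alone (adjusted p = 0.0229 and 0.0313). Timp3, an inhibitor of matrix proteases, rose from 154 and 156 to 318 and 351 CPM (log2 difference 1.11 ± 0.26, adjusted p = 0.0386), and with cells of the gate alone likewise (log2 difference 1.59, adjusted p = 0.0355). The call of Timp3 was lost without TMM (adjusted p = 0.128), with DESeq2 (adjusted p = 0.314), under 5% mitochondrial UMIs (adjusted p = 0.0963), with the replicate block (adjusted p = 0.0627) and without MOF cKO 1 (adjusted p = 0.075) or MOF cKO 2 (adjusted p = 0.17).

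Mitosis genes fell in 8 of 16 members, where 0.548% of all genes fell (median -1.65) and in 6 of 10 in cells of the gate alone (median -2.68). Ccnb1 had 77.2 and 76.8 CPM in the controls and 13.9 and 15.3 CPM in MOF cKO (log2 difference -2.38 ± 0.39, adjusted p = 0.00825). Ube2c, a ubiquitin-conjugating enzyme of mitotic exit, fell from 180.0 and 306 to 46.4 and 54.5 CPM (log2 difference -2.32 ± 0.33, adjusted p = 0.0042), and Cdk1, the kinase of the B-type cyclins, from 167 and 199.9 to 55.7 and 58.9 CPM (log2 difference -1.7 ± 0.27, adjusted p = 0.00748). All 3 also fell in cells of the gate alone (adjusted p = 0.0229, 0.0229 and 0.0314). Apln, a ligand made by the tip cells of sprouting vessels, fell from 51.4 and 94.9 to 20.9 and 24 CPM (log2 difference -1.85 ± 0.40, adjusted p = 0.0299), and with cells of the gate alone it had 78.3 and 102 CPM in the controls and 23 and 29.96 CPM in MOF cKO without passing (log2 difference -1.7, adjusted p = 0.0738). Kif22, a mitotic kinesin, fell from 45 and 62.1 to 4.64 and 13.1 CPM (log2 difference -2.64 ± 0.52, adjusted p = 0.0181), and was not tested in cells of the gate alone, where it had 26.1 and 61 CPM in the controls and 0 and 3.33 CPM in MOF cKO. Cd24a, a cell surface glycoprotein gene, went from 148 and 183 to 48.7 and 15.3 CPM (log2 difference -2.41 ± 0.43, adjusted p = 0.0112). It did not pass in cells of the gate alone (adjusted p = 0.18), and with stricter gates its log2 difference was -0.33 (adjusted p = 0.86). Of 10 genes of endothelial junctions none was called by edgeR or DESeq2, and none had an unadjusted p under 0.05. The tight junction gene Cldn5 had 739 and 774 CPM in the controls and 624 and 707 CPM in MOF cKO (log2 difference -0.19 ± 0.25, adjusted p = 0.778), and the vascular gene Egfl7 675 and 706 CPM in the controls and 545 and 591 CPM in MOF cKO (log2 difference -0.28 ± 0.25, adjusted p = 0.647).

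In the macrophage gate, whose sums held 33 and 45 control cells and 59 and 119 MOF cKO cells, edgeR called no gene and DESeq2 called 117 higher and 34 lower. Adjusted p-values in this section are from edgeR unless DESeq2 is named. With all cells of the gate, described genes that DESeq2 called lower included Lyve1, Pf4, Cx3cr1, Ccl7 and Lor. Those that it called higher included Lyz2, Il1b, Saa3, Fabp5, Lgals3, Ifitm3, Cxcl16, Mmp14 and Nfix. Fibroblast markers summed to 827 and 1526 CPM in control and to 2369 and 5747 CPM in MOF cKO. In cells of the macrophage gate alone (27, 40, 45 and 63 cells) these sums were 539 and 368 against 507 and 667 CPM, and 123 of 6288 genes were called, 103 higher and 20 lower. Values are given for both sets of cells.

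Resident macrophage genes and monocyte genes lay on opposite sides of the median gene. Of 18 resident macrophage genes the median was -0.76, and of 20 monocyte and inflammatory genes it was 2.25, against 0.00 over all genes. By edgeR none of either list was called, 9 and 15 had an unadjusted p under 0.05, and DESeq2 called 6 lower and 11 higher. With cells of the gate alone 6 of the 18 fell and 10 of the 20 rose by edgeR. Lyve1, a hyaluronan receptor of macrophages next to vessels, had 466 and 584 CPM in the controls and 86.7 and 86.7 CPM in MOF cKO (log2 difference -2.6 ± 0.27, adjusted p = 0.095). Among cells of the gate alone it fell, with 496 and 588 CPM in the controls and 102 and 125 CPM in MOF cKO (log2 difference -2.21, adjusted p = 0.0157). The platelet factor gene Pf4, strongly expressed in fetal resident macrophages, had 7009.8 and 8777 CPM in the controls and 2189 and 1712 CPM in MOF cKO (log2 difference -2.02 ± 0.28, adjusted p = 0.122), and passed in cells of the gate alone (log2 difference -1.66, adjusted p = 0.0225). Cx3cr1, the fractalkine receptor, had 390.2 and 443 CPM in the controls and 32.4 and 115 CPM in MOF cKO (log2 difference -2.48 ± 0.59, adjusted p = 0.192) and did not pass in cells of the gate alone either (adjusted p = 0.104).

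Lyz2, encoding the lysozyme of myeloid cells, had 1281 and 1315 CPM in the controls and 7554 and 5494 CPM in MOF cKO (log2 difference 2.33 ± 0.28, adjusted p = 0.108), and in cells of the gate alone 1606 and 1336 CPM in the controls and 8951 and 8079 CPM in MOF cKO (log2 difference 2.6, adjusted p = 0.00581). Plac8, a gene of monocytes recently come from the blood, had 9.18 and 105 CPM in the controls and 895 and 761 CPM in MOF cKO (log2 difference 3.85 ± 0.92, adjusted p = 0.193), and passed in cells of the gate alone (log2 difference 4.12, adjusted p = 0.0341). Il1b, encoding interleukin 1 beta, had 87.2 and 208 CPM in the controls and 739 and 384 CPM in MOF cKO (log2 difference 1.93 ± 0.53, adjusted p = 0.215), and passed in cells of the gate alone (log2 difference 2.19, adjusted p = 0.0341). Saa3 was without a UMI in the controls of the macrophage gate, had 3582 and 1881 CPM in MOF cKO, at least 726-fold higher, and did not pass by edgeR (adjusted p = 0.0743), but passed without TMM (adjusted p = 0.0303) and by DESeq2 (adjusted p = 5.27e-13). Cells of the gate alone had 4312 and 1525 CPM, and Saa3 passed there (adjusted p = 0.00581). Fabp5, a fatty acid binding protein of lipid-associated macrophages, and the lectin Lgals3 also passed, with 207 and 131 CPM in the controls and 1165 and 979 CPM in MOF cKO and 69 and 166 CPM in the controls and 932 and 791 CPM in MOF cKO in cells of the gate alone (adjusted p = 0.007 and 0.0246). Of the 15 wound and lipid-associated macrophage genes tested, to which both belong, 3 rose there and none fell. With all cells of the gate none was called by edgeR (median 0.41), 5 were higher and 2 lower at an unadjusted p under 0.05, and DESeq2 called 4 higher and 1 lower. Pf4 and Lyve1 thus fell and Lyz2, Plac8 and Il1b rose among cells that met no other gate.

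The interferon list had a median of 1.22. Ifitm3 had 255 and 550.0 CPM in the controls and 2202 and 1864 CPM in MOF cKO (log2 difference 2.34 ± 0.42, adjusted p = 0.161), and passed in cells of the gate alone (log2 difference 2.43, adjusted p = 0.0165). In such cells 5 of 22 members rose. Of 14 chemokine genes 3 rose there. Ccl2 had 572 and 1392 CPM in the controls and 434 and 433 CPM in MOF cKO (log2 difference -1.18 ± 0.45, adjusted p = 0.314), and Ccl7 601 and 799 CPM in the controls and 302 and 257 CPM in MOF cKO (log2 difference -1.32 ± 0.28, adjusted p = 0.169), and neither passed by edgeR in either set of cells, while DESeq2 called Ccl7 with all cells (adjusted p = 0.0216). Of 17 mitosis genes none was called by edgeR, 11 were lower at an unadjusted p under 0.05 and the median was -0.98. Of 16 S phase genes none was called, 9 were lower at that level and the median was -0.89. DESeq2 called 1 mitosis gene lower and 0 S phase genes. With cells of the gate alone the medians were -0.29 and -1.05, again with none called by edgeR.

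**Figure D5:**
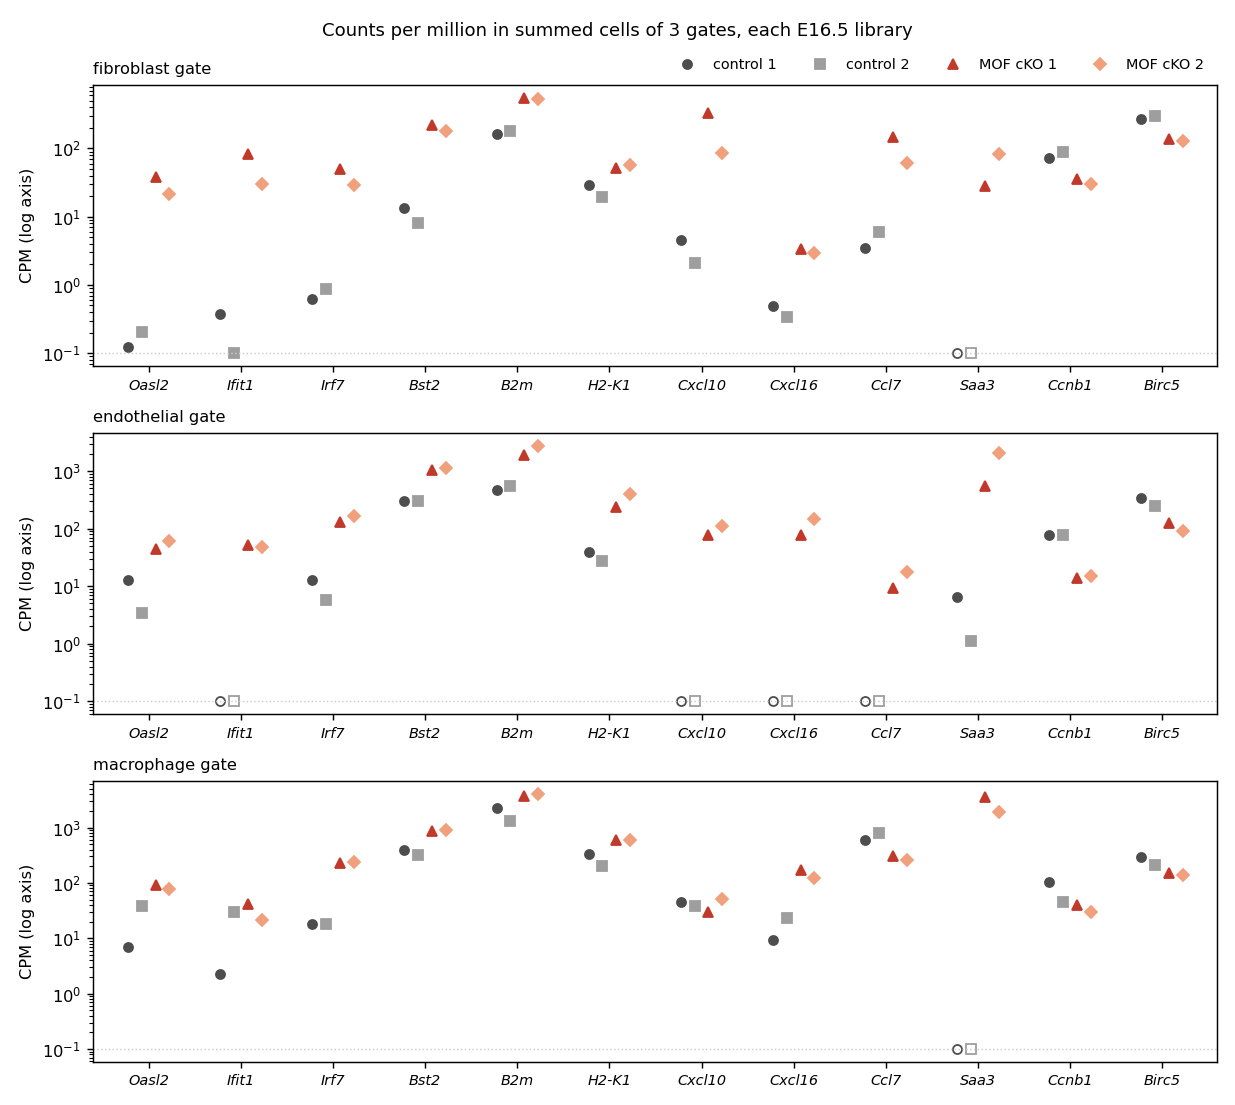
CPM of 12 genes in the summed fibroblast-gate, endothelial-gate and macrophage-gate cells of each E16.5 library, on log axes. Open symbols at the dotted line stand for 0 UMIs, and values between 0 and 0.1 are drawn at 0.1 with filled symbols. In the fibroblast and endothelial panels interferon genes lie higher in both MOF cKO libraries, and Ccnb1 and Birc5 lower. Saa3 lies higher in both MOF cKO libraries in every panel. In cells of the endothelial gate alone, which are not drawn, Saa3 had 13 and 1.33 CPM in the controls and 13.1 and 13.3 CPM in MOF cKO. Ccl7 lies higher in fibroblasts and lower in the macrophage gate.

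Genes past the threshold in the same direction in the epithelial, fibroblast and endothelial sums are given side by side. These sums come from the same 4 libraries. Lgals3, encoding galectin 3, rose from 163 and 151 to 1231 and 1081 CPM in epithelial cells, from 8.87 and 7.61 to 35.2 and 36.9 CPM in fibroblasts and from 0 and 20.3 to 239 and 649.9 CPM in endothelial cells. With cells of the endothelial gate alone it had 0 and 21.2 CPM in the controls and 23 and 13.3 CPM in MOF cKO, with overlapping groups, and was not tested. Ctsc, the protease that activates the serine proteases of leukocytes, rose from 46.1 and 31 to 252 and 166 CPM, from 8.12 and 7.13 to 19 and 24.4 CPM and from 45 and 11.3 to 197 and 417 CPM in the same order. It was not tested in cells of the endothelial gate alone, where it had 52.2 and 13.3 CPM in the controls and 13.1 and 16.6 CPM in MOF cKO. Cxcl16 rose in all 3 sums, but with cells of 1 gate alone it had 0 CPM in every endothelial library and did not pass in fibroblasts (adjusted p = 0.056). In the macrophage gate it had 9.18 and 22.8 CPM in the controls and 169 and 122 CPM in MOF cKO (log2 difference 3.16 ± 0.43, adjusted p = 0.122 by edgeR). There it passed by DESeq2 (adjusted p = 0.00011) and, by edgeR, in cells of the macrophage gate alone (log2 difference 3.12, adjusted p = 0.0165). Saa3 and Krt16 rose in all 3 sums, but with cells of the endothelial gate alone Saa3 had 13 and 1.33 CPM in the controls and 13.1 and 13.3 CPM in MOF cKO, and Krt16 had 0 in the controls and 75.5 and 9.99 CPM in MOF cKO. The mitotic genes Ccnb1, Ccnb2, Spc24 and Fam64a and the keratinocyte gene Lor fell in all 3. Spc24, a subunit of the kinetochore, fell from 96.4 and 89.2 to 9.17 and 13.1 CPM in epithelial cells, from 75.8 and 91.2 to 40.3 and 39.3 CPM in fibroblasts and from 122 and 80.2 to 34.8 and 26.2 CPM in endothelial cells. With cells of the endothelial gate alone neither Spc24 nor Ccnb2 passed (adjusted p = 0.0788 and 0.0621). Fam64a fell from 38.2 and 34 to 4.58 and 10.2 CPM, from 45 and 53.4 to 27.6 and 20.6 CPM and from 96.4 and 84.7 to 4.64 and 17.4 CPM. In the macrophage gate Ccnb1 had 103 and 45.6 CPM in the controls and 40.03 and 29.4 CPM in MOF cKO (log2 difference -1.11 ± 0.44, adjusted p = 0.326). Lor went from 17857 CPM in control 1 and 123 in control 2 to 12.4 and 11.8 CPM in the macrophage gate of MOF cKO. Control 1 had 269 CPM in cells of that gate alone.

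Whether a compartment changed differently from the others was tested by the interaction of genotype and compartment, with the library as a block, over 10646 genes. The change in epithelial cells differed from the mean change of the other 3 compartments for 755 genes (7.09%), 333 more positive and 422 more negative. Without TMM 173 were more positive and 1333 more negative. The median epithelial difference over all genes tested was -0.32, and -0.70 without TMM. Counts of list members below are from the fit with TMM and are not corrected for this median. In macrophage cells 65 genes differed (0.611%), in endothelial cells 9 (0.0845%) and in fibroblasts 0 (0.0%) by edgeR, where 1326 genes had an unadjusted p under 0.05. The epithelial count was 209 without control 1, 8 without MOF cKO 1 and 110 without MOF cKO 2, and without TMM it was 1506. The macrophage count was 191 without control 1, 161 without control 2 and 0 without either MOF cKO library. The endothelial count was 5 without MOF cKO 1 and 0 without MOF cKO 2. Glycolysis and p53 target genes were among those more positive in epithelial cells, with 11 of 23 and 6 of 15 members past the test and none in the other direction. Examples are Bnip3 (difference of log2 differences 2.1 ± 0.29, adjusted p = 0.00699), Eno1 (1.65 ± 0.23, adjusted p = 0.00699), Ccng1 (1.85 ± 0.27, adjusted p = 0.00699) and Cdkn1a (2.44 ± 0.46, adjusted p = 0.0142). Tslp (7.86 ± 0.87, adjusted p = 0.00247), Tgm1 (6.11 ± 1.03, adjusted p = 0.0116) and Fhl2, a co-regulator of transcription (5.01 ± 0.74, adjusted p = 0.00717), had the largest positive differences among genes of at least 50 CPM. Of 18 mitosis genes 2 were more negative in epithelial cells, among them Ccnb2 (-2.48 ± 0.47, adjusted p = 0.0138). Of 25 interferon genes 3 were more negative, and of 25 cilium genes 4. Of 36 nuclear-encoded subunits of the respiratory chain 5 were more negative and 2 more positive. Cygb (-5.97 ± 1.37, adjusted p = 0.0326), the macrophage gene Cbr2 (-4.78 ± 0.87, adjusted p = 0.0142) and the long noncoding RNA Meg3 (-4.17 ± 0.95, adjusted p = 0.0286) had the largest negative differences. With stricter gates the log2 difference of Meg3 in epithelial cells turned from -2.40 to 0.53. Neither value was called by edgeR, and DESeq2 called the former (adjusted p = 0.0159). Dcn (-2.8 ± 0.54, adjusted p = 0.0146) is a fibroblast gene and was more negative too. The fibroblast markers that were lower in the MOF cKO epithelial sums were not tested for their part in these differences. In endothelial cells the differences were led by Cd74 (6.09 ± 0.88, adjusted p = 0.032), Ifi30 (4.4 ± 0.55, adjusted p = 0.0111) and Tgfbi (3.74 ± 0.49, adjusted p = 0.0177), and none of the 9 was called in cells meeting exactly 1 gate. In macrophage cells Mmp14, a membrane metalloprotease (3.74 ± 0.34, adjusted p = 0.00249), Trps1 (3.02 ± 0.43, adjusted p = 0.0191) and Nfix (2.9 ± 0.53, adjusted p = 0.0344) were more positive, and Ccl7 (-6.09 ± 1.1, adjusted p = 0.0427), Ccl12 (-6.38 ± 1.17, adjusted p = 0.0455) and Bin2 (-4.78 ± 0.77, adjusted p = 0.03) more negative. Within the macrophage sums edgeR called none of the first 3 and DESeq2 called Mmp14 and Nfix (adjusted p = 0.00102 and 0.0368). In these sums fibroblast markers were also higher in MOF cKO, and the part of those transcripts was not tested. In cells of the macrophage gate alone Mmp14 had 6.57 and 0 CPM in the controls and 68.5 and 40.8 CPM in MOF cKO (log2 difference 4.25, adjusted p = 0.0452), Trps1 did not pass (adjusted p = 0.11) and Nfix, with 6.57 and 7.03 CPM in the controls and 11 and 15.2 CPM in MOF cKO, was not tested. For Ccl12 and Bin2 the contrast was with sums that held macrophage-gate cells in MOF cKO, and Ccl12 had no UMI in the endothelial sums of control, so the size of its fitted difference is not a bound.

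The change at E16.5 was compared with that at E15.5 in 1 fit of 8 libraries. The E15.5 libraries, 2 control and 2 MOF cKO, came from a later chemistry, so stage and chemistry cannot be told apart, and MOF cKO 6 at E15.5 is described in the study as mosaic. The change differed for 15 of 13602 genes in epithelial cells (0.11%), 188 of 14895 in fibroblasts (1.26%), 88 of 10259 in endothelial cells (0.858%) and 2 of 10360 in macrophages (0.0193%). In fibroblasts, 8 of 18 S phase and 5 of 18 mitosis genes were more negative at E16.5, and 4 of 16 complement genes and 3 of 25 interferon genes more positive. Mcm5 had a log2 difference of -0.04 at E15.5, and the change at E16.5 was more negative by -1.19 ± 0.13, adjusted p = 0.0239. C2 had 0.34 at E15.5 (difference between stages 3.34 ± 0.36, adjusted p = 0.0239), Stat3 0.07 (1.33 ± 0.21, adjusted p = 0.0393) and Ccl7 0.23 (4.12 ± 0.59, adjusted p = 0.0359). Wif1 had -0.54 at E15.5 (-1.89 ± 0.29, adjusted p = 0.0388). In endothelial cells 10 of 18 mitosis genes were more negative and 7 of 24 interferon genes more positive at E16.5. This test used all endothelial-gate cells, with the macrophage markers given above. Ube2c had 0.49 at E15.5 (-2.86 ± 0.34, adjusted p = 0.00697), Ccnb1 0.37 (-2.76 ± 0.34, adjusted p = 0.00728) and Irf7 0.87 (3.56 ± 0.68, adjusted p = 0.0356). In epithelial cells 14 of the 15 genes were more positive at E16.5. Slc16a3 had 0.54 at E15.5 (2.78 ± 0.37, adjusted p = 0.0483) and Ccnb1 0.27 (-2.94 ± 0.37, adjusted p = 0.0397). In macrophages Lyve1 had -0.26 at E15.5 (-2.33 ± 0.26, adjusted p = 0.0455). These counts moved widely when 1 library was left out, which leaves 1 library in its group, and the ranges are given below. In fibroblasts few calls remained without any 1 of the E15.5 libraries, the mosaic MOF cKO 6 among them, or without E16.5 MOF cKO 1. Far more fibroblast genes were called without E16.5 control 1. In endothelial cells few calls remained without E16.5 control 2. In epithelial and macrophage cells more genes were called without that library. The epithelial calls were lost without E16.5 MOF cKO 1 or E15.5 MOF cKO 6, and the macrophage calls without any 1 of the E15.5 libraries.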

How the data were processed

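The deposited files hold, for each library, a matrix of UMI counts of genes in cell barcodes, which the authors made with Cell Ranger (versions 1.3.1 and 6.1.2 are named for the E16.5 libraries, 6.1.2 for E15.5) on mouse build mm10. The matrices listed 27998 genes at E16.5. Cells were filtered and gated with Python 3.11.15, and raw counts were summed per library and gate. Sums were tested with edgeR 4.0.16 (quasi-likelihood test, genes kept by filterByExpr, TMM scaling, adjusted p by the Benjamini-Hochberg method under 0.05). Differences between compartments were tested with the library as a block, and the stages in 1 model per compartment. DESeq2 1.42.0, scaling without TMM, no filter on low counts, other gates and leaving out each library were alternatives. The stricter epithelial gate required at least 20 UMIs of Krt5 and Krt14 together. The stricter fibroblast gate required at least 60 UMIs of Col1a1 and Col3a1 together and under 5 of Krt5 and Krt14. The stricter endothelial and macrophage gates required all 3 genes. The edgeR tests of genotype and of its interactions were run on simulated counts with known changes, the stage test in fibroblasts alone. The other steps were not run on simulated data. No doublet caller was run, and cells meeting exactly 1 gate were an alternative instead.

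The cell gates, gene lists and members were chosen with earlier results of these data known. The genes named were the 5 largest rises and falls of at least 50 CPM that were called and did not overlap (gate genes, Xist and Y-linked genes left out), up to 4 called members per list by p, or its 2 most expressed where none was called, up to 10 genes called the same way in 3 compartments, the 3 largest differences from other compartments in each direction, and Kat8, Xist and Ddx3y. Further names beside counts of 5 or fewer were chosen after their values were seen. A fold against controls without a UMI was computed against a floor of 3 counts over the group. Wilson intervals of 95% and floors cover counting error only. Promoters were RefSeq sequences of GRCm38.p6, and gene coordinates came from a GRCm38 annotation that matched 27645 of the gene identifiers. The E17.5 libraries were not used in comparisons.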

Additional observations from a re-analysis of the deposited data

Results flagged for a closer look

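The following differences passed a test of the difference itself by edgeR (adjusted p under 0.05), and no explanation was weighed. The change in MOF cKO differed from that of the other compartments for 755 genes in epithelial, 9 in endothelial and 65 in macrophage cells. It differed from the change at E15.5 for 15 genes in epithelial cells, 188 in fibroblasts, 88 in endothelial cells and 2 in macrophages, where stage and chemistry cannot be told apart.

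In epithelial cells the log2 difference was more positive than in the other compartments by 7.86 for Tslp, 6.11 for Tgm1 and 5.01 for Fhl2. It was more negative for Cygb (-5.97), Cbr2 (-4.78), Meg3 (-4.17), Rgs2 (-3.56), Ccnb2 (-2.48) and Spc24 (-1.85). With stricter gates the epithelial log2 difference of Meg3 turned from -2.40 to 0.53. In endothelial cells it was more positive by 6.09 for Cd74, 4.40 for Ifi30 and 3.74 for Tgfbi, and macrophage-gate cells were among the cells summed. In macrophage cells it was more positive by 3.74 for Mmp14, 3.02 for Trps1 and 2.90 for Nfix and more negative for Ccl12 (-6.38), Ccl7 (-6.09) and Bin2 (-4.78). Fibroblast markers were higher in the macrophage sums of MOF cKO (827 and 1526 CPM in control, 2369 and 5747 CPM in MOF cKO), and their part was not tested. Within macrophage cells Bin2 had a log2 difference of 0.024 (adjusted p = 0.99 by edgeR), and for Bin2 and Ccl12 the contrast was with sums that held macrophage-gate cells in MOF cKO.

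Against E15.5, the change in epithelial cells was more negative for Ccnb1 (-2.94). In fibroblasts it was more negative for Wif1 (-1.89), Id1 (-1.46) and Ccnb1 (-1.42). In endothelial cells it was more negative for Fam64a (-3.25), Kif22 (-2.90), Ccnb1 (-2.76), Cd24a (-2.76) and Ccnb2 (-1.39), and more positive for Tgfbi (4.02). The endothelial test used all cells of the gate, in which macrophage markers summed to 41.2 and 138 CPM in E16.5 control and to 3170 and 6000 CPM in E16.5 MOF cKO. In E16.5 cells of that gate alone Tgfbi had 0 and 6.63 CPM in control and 65.7 and 13.3 CPM in MOF cKO and was not tested.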

How the results depend on the processing

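Shares are differences in percentage points. With stricter gates the epithelial difference was -14.1, the fibroblast difference 40.2 and the macrophage difference 2.76. The stricter fibroblast gate also required under 5 UMIs of Krt5 and Krt14. It kept 215 of 657 fibroblast-gate cells of control 1 and 938 of 1433 of control 2. In MOF cKO it kept 461 of 518 and 998 of 1053. The part of keratin transcripts in the fibroblast difference and calls with stricter gates was not tested. Under 5% mitochondrial UMIs the epithelial difference was -15.6. The fibroblast difference was 2.91 among kept cells outside the epithelial gate, and the macrophage difference 3.45 with cells meeting exactly 1 gate. Leaving out 1 library kept the differences between -19.8 and -17.4 (epithelial), 14.2 and 19.2 (fibroblast), 0.199 and 1.78 (endothelial) and 5.59 and 6.65 (macrophage).

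Counts of genes called were as follows. Without a filter on low counts there were 2007 epithelial, 1752 fibroblast, 615 endothelial and 416 macrophage calls. With stricter gates there were 1209, 97, 99 and 122. DESeq2 called 950 in fibroblasts, 152 in endothelial cells and 151 in macrophages. Cells meeting exactly 1 gate gave 52 endothelial and 123 macrophage calls, under 5% mitochondrial UMIs gave 316 epithelial and 3 macrophage calls, and scaling without TMM gave 7 macrophage calls. Leaving out 1 library gave 39 to 1112 epithelial, 0 to 369 fibroblast, 343 to 475 endothelial and 0 to 55 macrophage calls.

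Genes whose change differed from the other compartments numbered 1508 (epithelial), 315 (fibroblast), 288 (endothelial) and 829 (macrophage) without the filter, and 1506 (epithelial) without TMM. With cells meeting exactly 1 gate they numbered 35 (fibroblast), 0 (endothelial, by edgeR, with 811 at an unadjusted p under 0.05) and 115 (macrophage). Leaving out 1 library gave 8 to 767, 0 to 1, 0 to 10 and 0 to 191. Against E15.5 the filter's absence gave 664, 510, 445 and 354, scaling without TMM 3 (epithelial) and 314 (fibroblast), and leaving out 1 library 0 to 207, 0 to 844, 2 to 81 and 0 to 26. The causes of these moves were not tested.

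Some genes that were not called changed the sign of their log2 difference. With stricter gates these were Meg3 in epithelial cells (0.53), Cldn5 (0.30) and Egfl7 (0.080) in endothelial cells and Ccl12 in macrophage cells (0.069). With cells meeting exactly 1 gate they were Cldn5 (0.14), Egfl7 (0.32) and, in macrophage cells, Ccnb2 (0.068). In macrophage cells Bin2 was -0.014 without TMM. Over the settings that leave out 1 library, Bin2 ranged from -0.15 to 0.21, Cxcl2 from -1.82 to 0.063 and Ccl12 from -1.34 to 0.067 (each crossing without control 2), and Ccnb2 from -0.97 to 0.18 (crossing without control 1). Of the values of named genes under the alternatives, 449 of the endothelial, 647 of the epithelial, 619 of the fibroblast and 319 of the macrophage values kept their direction and side of the threshold. A further 40, 97, 216 and 0 lost the call, and 0, 3, 5 and 65 gained it.

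In epithelial, fibroblast, endothelial and macrophage cells, deviations from the group mean correlated at -0.02, -0.02, -0.06 and 0.06 between libraries with the same number. With 2 libraries per group such a correlation cannot decide whether the replicate numbers mark pairs. With the replicate number as a block, 549, 576, 297 and 0 genes were called, the last by edgeR with 956 at an unadjusted p under 0.05. Depth was lowest in the endothelial sums (145516 to 909831 UMIs), the control macrophage sums (439032 and 469244 UMIs) and the MOF cKO epithelial sums (577644 and 800201 UMIs). The part of depth in the results was not tested.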
